A study of Mus musculus with 18 samples.

Results

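Plekhs1 encodes a protein with a pleckstrin homology domain, and it was read here from the single transcript cluster that carries this symbol (cluster 10464137, gene ID 226245, formerly 9930023K05Rik), 1 of 35556 clusters on the array and 1 of 23410 with a gene symbol. The gene was chosen by its log2 values in these same arrays, where its differences between groups were among the largest, so its levels are given as a description and no test is applied to it. The mIMCD-3 cells, an established mouse line from the inner medullary collecting duct of the kidney, were profiled on 18 arrays in 2 experiments. In the first, the cells received 1 µM AGN193109 with 0.2 µM all-trans retinoic acid (tRA), 1 µM AGN193109 alone, or vehicle (ethanol and DMSO, 0.1% each). In the second they received 25 µM DEAB with 0.01 µM tRA, 25 µM DEAB alone, or the same vehicle. Every treatment lasted 24 h, and each group had 3 arrays, 1 from each of 3 independent biological experiments. All groups were the same line, so the results describe 1 line in culture at 1 time point.

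Retinoic acid is made inside cells by retinaldehyde dehydrogenases (Raldhs) and binds retinoic acid receptors (RARs), which pair with retinoid X receptors on DNA and switch genes on or off. AGN193109 is an antagonist of all RAR types, whereas DEAB inhibits the Raldhs, so the 2 experiments asked what the cells' own retinoic acid does at the receptor step and at the synthesis step. Adding tRA to each inhibitor asked how far the effect was abolished. Pleckstrin homology domains are folds that bind phosphoinositide lipids or other proteins and bring their carriers to membranes. Plekhs1 has been little studied and has been placed in phosphoinositide 3-kinase (PI3K) signalling in mouse prostate.

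The gene lies on chromosome 19 at chr19:56457275-56486729 of GRCm38, a span of 29455 bp. RARs and their partners favour direct repeats of a 6-base half-site, so the RefSeq promoter window of Plekhs1 is shown with its half-sites. The window covers 250 bases before and 50 bases after an annotated start inside the gene span, at chr19:56461387-56461686 on the plus strand of GRCm38.p6. Capitals mark any match, on either strand, to the canonical half-site AGGTCA, to its relaxed forms AGTTCA and GGGTCA, or to the form GGTTCA with both changes.
Plekhs1: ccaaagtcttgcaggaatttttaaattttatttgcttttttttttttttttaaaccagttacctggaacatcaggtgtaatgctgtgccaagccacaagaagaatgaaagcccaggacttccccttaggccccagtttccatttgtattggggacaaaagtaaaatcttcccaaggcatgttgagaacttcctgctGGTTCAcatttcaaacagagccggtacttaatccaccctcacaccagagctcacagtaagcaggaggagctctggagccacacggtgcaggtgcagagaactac
A single match, GGTTCA on the plus strand, began 54 bases before the start (position -54). At least 1 such half-site was present in 43.7% of all 32851 RefSeq mouse promoter windows of 300 bases. None of the direct repeats DR1, DR2 and DR5 built from these half-sites (spacers of 1, 2 and 5 bases, both strands) was found in this window. They occurred in 0.222%, 0.268% and 0.0974% of all windows. These letters describe the window alone, and the arrays did not measure binding.

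Plekhs1 was lower with either inhibitor than with vehicle, and higher when tRA was added to the inhibitor than with the inhibitor alone. The values below are RMA intensities on the log2 scale, so a difference of 1 is a change by a factor of 2. In the first experiment Plekhs1 read 8.30, 8.49 and 8.16 with AGN193109+tRA in replicates 1, 2 and 3. With AGN193109 alone it read 6.78, 6.97 and 6.85. The vehicle arrays of this experiment read 8.83, 9.36 and 8.78. The 3 groups did not overlap, and replicate 2 was the highest array in each of them.

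In the second experiment Plekhs1 read 9.66, 9.71 and 9.47 with DEAB+tRA in replicates 1, 2 and 3. With DEAB alone it read 7.60, 7.74 and 7.76. The vehicle arrays read 9.01, 8.97 and 8.82. Again the 3 groups did not overlap. Here, however, the DEAB+tRA arrays were the highest, whereas in the first experiment the vehicle arrays were.

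**Figure D1:**
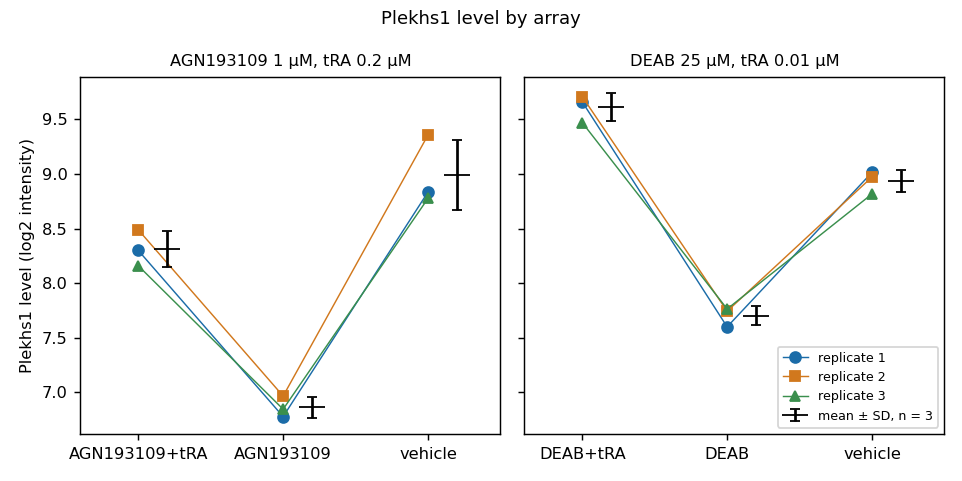
Plekhs1 level (log2 intensity, y axis) in each of 18 arrays, with the AGN193109 experiment on the left and the DEAB experiment on the right. Coloured lines join arrays with the same replicate number and black marks give the mean ± SD of 3 arrays. The inhibitor alone is lowest in both panels, and vehicle is the highest group on the left (8.78 to 9.36) but the middle group on the right (8.82 to 9.01).

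The group means were 8.32 ± 0.17 with AGN193109+tRA, 6.86 ± 0.10 with AGN193109 and 8.99 ± 0.32 with vehicle (SD, n = 3 each). In the other experiment they were 9.61 ± 0.13 with DEAB+tRA, 7.70 ± 0.09 with DEAB and 8.93 ± 0.10 with vehicle (SD, n = 3 each). The order within the first experiment was therefore vehicle, AGN193109+tRA and AGN193109. The highest AGN193109+tRA array and the lowest vehicle array were 0.29 apart, which was less than the SD of the vehicle arrays. All other neighbouring groups in either order were further apart than any SD, with gaps between nearest arrays of 1.19 for AGN193109+tRA over AGN193109, 0.46 for DEAB+tRA over vehicle and 1.05 for DEAB under vehicle. Levels were compared only within an experiment, because the array medians were 7.23 to 7.33 in the first and 7.48 to 7.51 in the second, and the sources used here do not state whether all 18 arrays were normalized together.

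With AGN193109, the average log2 difference of Plekhs1 from vehicle was -2.12 (standard error 0.15), which left 22.9% of the vehicle intensity. The differences in replicates 1, 2 and 3 were -2.05, -2.39 and -1.93. Replicate 2 had the deepest difference together with the highest vehicle array. By size, this was the 5th largest decrease among 23410 clusters.

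With DEAB, the average difference from vehicle was -1.23 (standard error 0.08), which left 42.6% of the vehicle intensity. By replicate the differences were -1.41, -1.23 and -1.05. It was the 6th largest decrease of that comparison. Every replicate of both experiments was thus lower with the inhibitor than with its own vehicle.

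The AGN193109 differences were the deeper of the pair, since the smallest of them, -1.93, was beyond the largest DEAB difference, -1.41. On average the AGN193109 effect minus the DEAB effect was -0.89 (standard error 0.18), given as a description, since these values chose the gene. The vehicle groups, against which each was set, averaged 8.99 and 8.93. The inhibitors act at different steps and were used at different concentrations, 1 µM and 25 µM, and how far concentration contributed was not tested.

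When tRA was present with AGN193109, Plekhs1 was higher than with AGN193109 alone by 1.45 (standard error 0.15), or 2.73-fold. The replicates differed by 1.52, 1.52 and 1.31, and this was the 5th largest increase of the comparison. With DEAB the corresponding difference was 1.91 (standard error 0.08), or 3.75-fold. Its replicates differed by 2.06, 1.96 and 1.71, and it was the 4th largest increase. The rise with AGN193109 minus the rise with DEAB was -0.46 (standard error 0.18), but tRA was given at 0.2 µM with the antagonist and at 0.01 µM with DEAB, so these values stand side by side and are not a comparison at 1 dose.

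**Figure D2:**
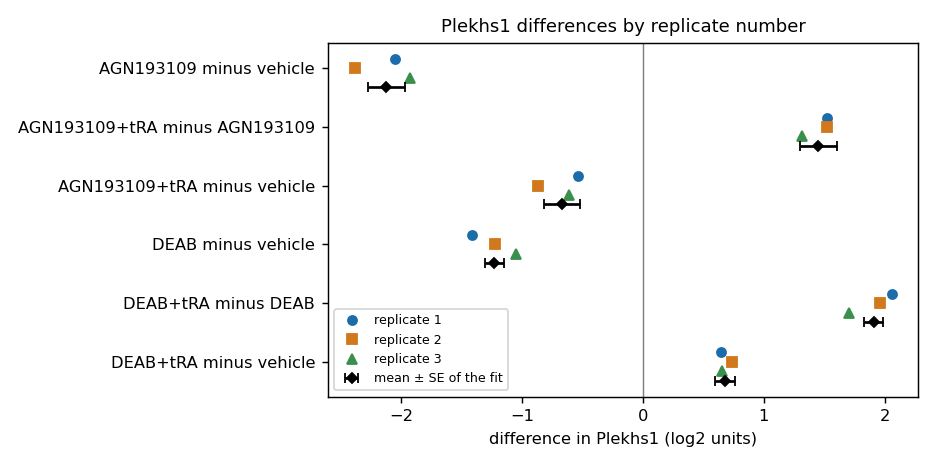
Plekhs1 differences (log2 units, x axis) in the 6 comparisons, by replicate number (coloured points), with the mean ± standard error of the limma fit (black). All 3 replicates lie on the same side of 0 in every comparison, and the inhibitor+tRA minus vehicle differences are negative with AGN193109 (mean -0.67) and positive with DEAB (mean 0.68).

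The tRA groups ended on opposite sides of vehicle. AGN193109+tRA remained lower than vehicle by an average difference of -0.67 (standard error 0.15), at 62.7% of the vehicle intensity, with replicate differences of -0.53, -0.87 and -0.62. DEAB+tRA was higher than vehicle by 0.68 (standard error 0.08), or 1.60-fold, with replicate differences of 0.65, 0.73 and 0.65. As a share of the log2 decrease that each inhibitor gave, tRA regained 74.0%, 63.7% and 68.0% in replicates 1, 2 and 3 of the AGN193109 experiment. In the DEAB experiment it regained 146%, 159.8% and 162%, which is more than the decrease itself. These comparisons share arrays, since the inhibitor groups enter both the decrease and the rise.

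The genes on either side of Plekhs1 on chromosome 19 were examined next, to see whether the stretch moved as a whole. The 5 measured genes before it were Zdhhc6, a protein palmitoyltransferase, Vti1a, a SNARE of vesicle fusion, Tcf7l2, a transcription factor of Wnt signalling, Habp2, a secreted serine protease, and Nrap, an actin-anchoring protein of muscle. The 5 after it were Dclre1a, which repairs DNA crosslinks, Nhlrc2, Ccdc186, Tdrd1, a germline protein of the piRNA pathway, and Vwa2. None of the 10 was called in any of the 4 comparisons of tRA with inhibitor alone or inhibitor with vehicle (limma, adjusted p under 0.05 over 23410 clusters), and none had an unadjusted p under 0.05. Over all clusters 0.0683% were called for AGN193109 against vehicle, 0.0214% for AGN193109+tRA against AGN193109, 0.0342% for DEAB against vehicle and 0.325% for DEAB+tRA against DEAB. At an unadjusted p under 0.05 the shares were 3.3%, 2.14%, 4.05% and 6.39% in the same order, and with the replicate number as a block 0.457%, 0.0812%, 0.303% and 1.5% were called. With so few called anywhere, a count of 0 of 10 sits at the background.

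The sizes were small as well. The 10 neighbours differed between AGN193109 and vehicle by -0.10 (Tcf7l2) to 0.15 (Habp2), and between DEAB and vehicle by -0.09 (Dclre1a) to 0.06 (Habp2). Their median difference was -0.0082 with AGN193109, beside 0.02 over all clusters tested, and -0.04 with DEAB, beside -0.00013 over all. Dclre1a, the nearest measured gene at 42.4 kb, differed by -0.07 ± 0.11 with AGN193109 and by -0.09 ± 0.07 with DEAB (standard error). Nrap, 67.2 kb to the other side, differed by 0.15 ± 0.08 with AGN193109 and by -0.02 ± 0.11 with DEAB (standard error). Across the 10 genes the 95% intervals for AGN193109 against vehicle reached no lower than -0.42 and no higher than 0.41, and those for DEAB against vehicle no lower than -0.45 and no higher than 0.34. The smallest adjusted p with the replicate number as a block was 0.47 (limma), for DEAB+tRA against DEAB.

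**Figure D3:**
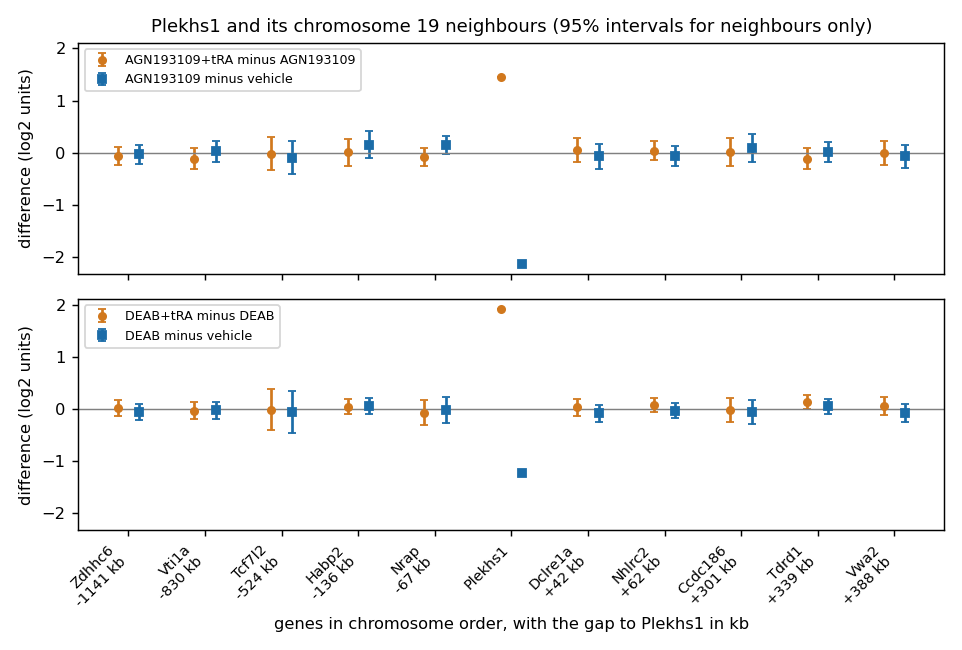
Differences (log2 units, y axis) for Plekhs1 and 10 measured neighbours in chromosome order (x axis, gap to Plekhs1 in kb), with 95% intervals as bars for the neighbours and none for Plekhs1, with AGN193109 above and DEAB below. Circles give inhibitor+tRA minus inhibitor and squares give inhibitor minus vehicle. Plekhs1 stands at -2.12 and 1.45 above and at -1.23 and 1.91 below, whereas the neighbours lie between -0.11 and 0.15.

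Genes named for a pleckstrin homology domain were read next. The Plekh family held 29 clusters of 28 genes besides Plekhs1, of which 0 were called in each of the 4 comparisons (limma), against unadjusted p under 0.05 for 3 with AGN193109, 1 with AGN193109+tRA against AGN193109, 0 with DEAB and 4 with DEAB+tRA against DEAB. Over all clusters the called shares were 0.0683%, 0.0214%, 0.0342% and 0.325%, and the shares at an unadjusted p under 0.05 were 3.3%, 2.14%, 4.05% and 6.39%, so 0 calls among 29 clusters is no result about the family. Their median difference was -0.03 for AGN193109 against vehicle, beside 0.02 over all clusters tested, and -0.00073 for DEAB against vehicle, beside -0.00013 over all. Plekha6, a protein of cell junctions, had the lowest value with AGN193109, 7.09 ± 0.16 against 7.51 ± 0.20 with vehicle (SD, n = 3 each), a difference of -0.42 ± 0.12 (standard error; limma adjusted p = 1, or 0.107 with the replicate block). With DEAB it read 7.24 ± 0.04 against 7.38 ± 0.10 with vehicle (SD, n = 3 each), a difference of -0.14 ± 0.09 (standard error; limma adjusted p = 1). Plekho2 was the highest of the family with AGN193109, at 0.36 ± 0.11 (standard error; limma adjusted p = 1), and Plekhg6 differed by -0.26 ± 0.10 (standard error; limma adjusted p = 1). Plekhg3, Plekhh3 and Plekho2, which had the smallest unadjusted p for DEAB, differed from vehicle by -0.11 ± 0.06, 0.14 ± 0.09 and 0.08 ± 0.05 (standard error; limma adjusted p = 1 for each).

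The PI3K pathway list had 36 of its 39 genes on the array, in 38 clusters. Again 0 of 38 were called in each of the 4 comparisons (limma), with unadjusted p under 0.05 for 2, 0, 1 and 2 clusters in the order AGN193109 against vehicle, AGN193109+tRA against AGN193109, DEAB against vehicle and DEAB+tRA against DEAB, beside the shares over all clusters given above. The median difference of the list was 0.03 for AGN193109 against vehicle, beside 0.02 over all clusters tested, and 0.0079 for DEAB against vehicle, beside -0.00013 over all. Inpp4b, a phosphatase that removes a phosphate from PI3K lipid products, read 6.63 ± 0.11 with AGN193109 against 6.37 ± 0.19 with vehicle (SD, n = 3 each), a difference of 0.26 ± 0.10 (standard error; limma adjusted p = 1). Inpp5d, the phosphatase SHIP1, differed by 0.22 ± 0.09 with AGN193109, and Pik3r5, a regulatory subunit, by 0.15 ± 0.07 (standard error; limma adjusted p = 1 for each). With DEAB, Pik3r1, the main p85 regulatory subunit, read 9.77 ± 0.09 against 10.01 ± 0.03 with vehicle (SD, n = 3 each), a difference of -0.24 ± 0.08 (standard error; limma adjusted p = 1, or 0.253 with the replicate block). Phlpp1, a phosphatase of AKT, and Pik3cg, a catalytic subunit, differed from vehicle by -0.09 ± 0.05 and 0.13 ± 0.08 with DEAB (standard error; limma adjusted p = 1 for each). The arrays measured RNA, so lipid levels and kinase activity were not measured.

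Of 21788 other clusters with a single symbol, those whose pattern over the arrays was most like that of Plekhs1 were found from the Pearson correlation over the 9 arrays of each experiment, taking the lower of the 2 values. The median of that lower value was -0.21. It was at least 0.5 for 337 clusters and at least 0.9 for 11, of which the first 10 are described. The 9 points of an experiment are 3 groups of 3, so a high value says mainly that a gene has the same order and similar relative spacing of the group means. The arrays also share their replicate numbers.

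First came Itga2, the collagen-binding integrin α2, with r = 0.96 in the first experiment and 0.97 in the second. Smad3, which carries TGF-β signals to the nucleus, had 0.95 and 0.96. Ppbp, a CXC chemokine precursor, had 0.95 and 0.98. Chka, a choline kinase of phosphatidylcholine synthesis, had 0.93 and 0.98, and the transcription factor Sox4 had 0.92 and 0.96. They were followed by Csn3 (κ-casein), Them6, the tetraspanin Tspan18, Zfp36l1, an RNA-binding protein that promotes mRNA decay, and the hydroxylase Jmjd4, with lower values of 0.91 to 0.92. Npr3 was the next cluster at 0.90. By contrast the best of the neighbours, Nhlrc2, had 0.34, the best of the Plekh family, Plekha6, 0.58, and the best of the PI3K list, Phlpp1, 0.50.

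The like genes were spread over 8 chromosomes, and Chka was the only other on chromosome 19. A shared pattern did not mean a shared size. Ppbp differed from vehicle by -3.25 with AGN193109 and by -2.62 with DEAB, both deeper than Plekhs1. Itga2 differed by -1.69 and -1.36, so its AGN193109 difference was smaller than that of Plekhs1 and its DEAB difference larger. Csn3 differed by -1.54 with AGN193109 and -1.12 with DEAB. The other 7 differed by -0.80 to -0.36 with AGN193109 and by -0.47 to -0.13 with DEAB. Jmjd4 was the smallest in both.

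With tRA, the 10 regained 38.8% (Jmjd4) to 87.2% (Itga2) of the log2 decrease in the AGN193109 experiment, and 121% (Csn3) to 210.5% (Tspan18) in the DEAB experiment. Plekhs1, at 68.3% and 155% from the group means, was inside both ranges. All 10 therefore ended below vehicle with AGN193109+tRA and above it with DEAB+tRA, as the choice by correlation favours. Which genes made the list depended on the measure. When replicate means were subtracted first, 3 of the 10 (Chka, Ppbp and Smad3) stayed among the first 10, which Gsr then led with 0.99. With Spearman's rho 5 of the 10 stayed (Itga2, Chka, Jmjd4, Smad3 and Ppbp). Smad3, Ppbp and Chka were in the first 10 under every measure tried.

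**Figure D4:**
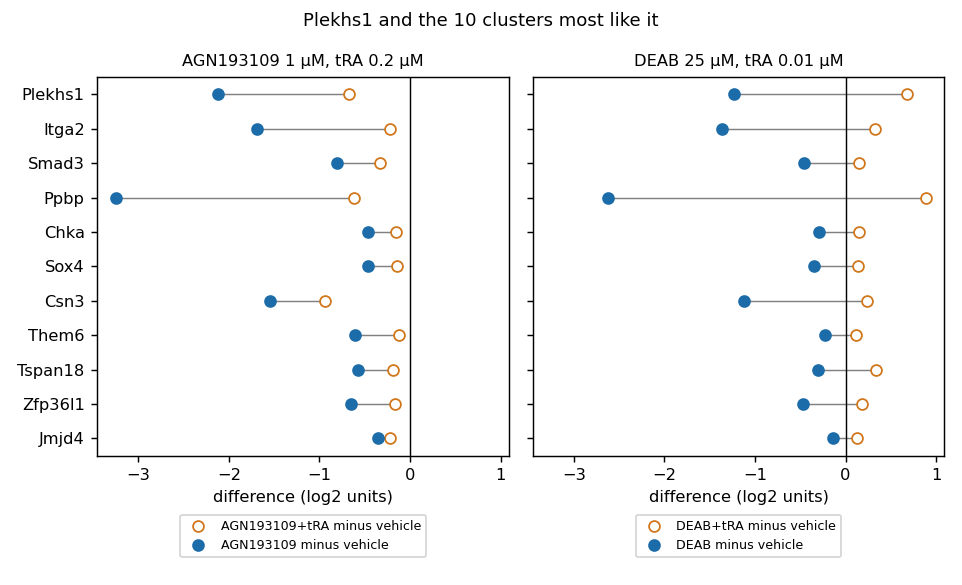
Differences from vehicle (log2 units, x axis) of Plekhs1 and the 10 clusters most like it, in order of likeness, for AGN193109 (left) and DEAB (right). Open circles give inhibitor+tRA minus vehicle and filled circles give inhibitor minus vehicle. Every open circle lies left of 0 with AGN193109 and right of 0 with DEAB, and only Ppbp (-3.25) has a deeper AGN193109 difference than Plekhs1 (-2.12).

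RefSeq promoter windows were found for 7 of these 10 genes, and not for Csn3, Them6 and Tspan18. A half-site of the kind marked for Plekhs1 was present in 3 of the 7 (Jmjd4, Ppbp and Sox4), beside 43.7% of all windows. A DR5 was present in 1 of the 7 (Ppbp), beside 0.0974% of all windows. DR1 and DR2 were in none of the 7, beside 0.222% and 0.268% of all windows.

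Markers of the collecting duct were read to see what moved beside Plekhs1. Of 12 principal cell markers, 0 were called in each of the 4 comparisons (limma), with unadjusted p under 0.05 for 2, 1, 0 and 0 of them in the same order as above. Over all clusters 0.0683%, 0.0214%, 0.0342% and 0.325% were called, and 3.3%, 2.14%, 4.05% and 6.39% had an unadjusted p under 0.05 (limma). With shares this low, 0 calls among 12 markers is no result about the markers. With AGN193109, 9 of the 12 were higher than with vehicle and 3 lower, at a median difference of 0.09 beside 0.02 over all clusters. With AGN193109+tRA, 10 of the 12 were lower than with AGN193109 and 2 higher, at a median of -0.06 beside -0.01 over all. The ends of the range were set by Hsd11b2, the enzyme that inactivates glucocorticoids in principal cells, and Scnn1a, the α subunit of the epithelial sodium channel. Hsd11b2 differed by 0.31 ± 0.13 for AGN193109 against vehicle and by -0.35 ± 0.13 for AGN193109+tRA against AGN193109 (standard error; limma adjusted p = 1 for each), signs opposite to those of Plekhs1. Scnn1a differed from vehicle by -0.18 ± 0.07 with AGN193109 and by -0.20 ± 0.15 with DEAB (standard error; limma adjusted p = 1 for each). Aqp2, the vasopressin-regulated water channel, read 7.95 ± 0.17 with AGN193109 against 7.79 ± 0.24 with vehicle, and 8.03 ± 0.17 with DEAB against 8.01 ± 0.03 with vehicle (SD, n = 3 each). Cdh1, the E-cadherin of epithelial junctions, read 12.27 ± 0.06 with AGN193109 against 12.25 ± 0.07 with vehicle, and 12.88 ± 0.04 with DEAB against 12.91 ± 0.05 with vehicle (SD, n = 3 each). Of 16 clusters for markers of other kidney, stromal and immune cells, 0 were called in each of the 4 (limma), with unadjusted p under 0.05 for 0, 0, 0 and 2. Beside the same shares over all clusters, 0 calls among 16 is no result about these markers either. With DEAB+tRA, 14 of these 16 were higher than with DEAB and 2 lower, at a median difference of 0.09 beside 0.0060 over all clusters, and the differences ran over -0.20 (Cd68, of macrophages) to 0.18 (Slc12a1, of the thick ascending limb). The summed log2 level of the 15 genes lay between 103.8 and 105.2 with DEAB+tRA, between 102.5 and 104.0 with DEAB and between 102.5 and 103.7 with vehicle. The part of these markers in the Plekhs1 differences was not tested. The deposited table gave no detection calls, so whether a marker was present or absent could not be read from it.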

How the data were processed

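Total RNA of mIMCD-3 cells was hybridised to Affymetrix mouse gene arrays. The authors deposited log2 values per transcript cluster, made with RMA in Affymetrix Expression Console (version not given in the sources used here), and RMA's shrinkage of dim probes can understate changes. Groups came from the sample titles. The labels have no experiment field, so each vehicle array was placed in an experiment by the form of its short name, an inference on which every difference from vehicle rests. Array number limits the precision. Each experiment was fitted separately with limma 3.58.1 in R 4.3.3 on the 3 groups without a block, over 23410 clusters with a gene symbol, with Benjamini-Hochberg adjustment. P-values of this fit set a difference against the spread of the 3 biological replicates within the groups of 1 experiment. That spread includes shifts that same-numbered arrays share. Same-numbered arrays deviated together, with residual correlations of 0.20 to 0.65 (AGN193109 arrays and their controls) and 0.18 to 0.61 (DEAB arrays and theirs) over 9 pairs each. Arrays with different numbers had -0.57 to 0.21 and -0.51 to 0.31 in the same order, so the ranges overlapped at their ends. The numbers were therefore taken as a likely pairing of the samples, and fits with the replicate block were run beside the main ones.

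Named genes were Plekhs1, the 10 clusters most like it, 10 chromosome neighbours and, of the Plekh family and PI3K lists, any called member and the 3 smallest p for each inhibitor, with the brightest cluster read for a gene with several. Members and lists were chosen with earlier results of these data known. Positions and promoter windows came from RefSeq (GRCm38.p6). The alternatives were the block, subtracted array medians, a second quantile normalization, all clusters, no dim clusters, limma's trend and robust options, other likeness measures and each array left out. The fit was tested on simulated data.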

Additional observations from a re-analysis of the deposited data

Results flagged for a closer look

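The difference between inhibitor+tRA and vehicle had opposite signs in the 2 experiments. Plekhs1 differed by -0.67 (log2) for AGN193109+tRA minus vehicle and by 0.68 for DEAB+tRA minus vehicle. The sign held in all 3 replicates of each experiment. The difference between the experiments was not tested, and the inhibitors and the tRA concentrations (0.2 µM and 0.01 µM) differed between them.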

How the results depend on the processing

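The Plekhs1 differences kept their sign under every alternative run. The AGN193109+tRA difference from vehicle moved most without vehicle replicate 2 of that experiment, to -0.49 against -0.67 with all arrays. Leaving out each array in turn gave -2.23 to -1.94 for AGN193109 minus vehicle, 1.37 to 1.53 for AGN193109+tRA minus AGN193109, -0.78 to -0.49 for AGN193109+tRA minus vehicle, -1.29 to -1.18 for DEAB minus vehicle, 1.86 to 1.98 for DEAB+tRA minus DEAB and 0.62 to 0.75 for DEAB+tRA minus vehicle. The AGN193109 effect minus the DEAB effect ranged over -0.999 to -0.71, and the corresponding difference in the tRA rise over -0.54 to -0.38.

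With the replicate number as a block the Plekhs1 differences were the same by construction (-2.12, 1.45, -0.67, -1.23, 1.91 and 0.68 in the order above), and the pairing lowered their standard errors, to 0.095 with AGN193109 and 0.074 with DEAB. The block raised the count of called clusters to 107 against 16 without it for AGN193109 against vehicle, 19 against 5 for AGN193109+tRA against AGN193109, 71 against 8 for DEAB against vehicle, and 351 against 76 for DEAB+tRA against DEAB. It called 0 members of the Plekh family, the PI3K list and the neighbours, as did all 60 alternative values of each list, including every array left out (0 to 0). The list most like Plekhs1 shared 3 of 10 genes after replicate means were subtracted and 5 of 10 with Spearman's rho, and the cause was not tested.

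Plekhs1 rests on 1 cluster of 1 array design and 3 arrays a group. Without detection calls or probe values the background under its lowest levels, 6.78 to 6.97 with AGN193109, could not be read, and depth does not apply to arrays.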

Other observations

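The clusters that ran most opposite to Plekhs1 in both experiments were Lmna, which encodes the lamins A and C of the nuclear envelope, Syne3, the nesprin of its outer membrane, and Cdkn2b, a cyclin-dependent kinase inhibitor. They were chosen after their values were seen, by the higher of the 2 correlations. Lmna had r = -0.92 in the first experiment and -0.95 in the second, with differences from vehicle of 0.34 with AGN193109 and 0.22 with DEAB (log2). Syne3 differed by 0.30 with AGN193109 and 0.15 with DEAB, and Cdkn2b by 0.30 and 0.26. All 3 were lower with inhibitor+tRA than with inhibitor alone, by -0.37 to -0.22 with AGN193109 and by -0.45 to -0.26 with DEAB. These differences were much smaller than those of Plekhs1 and are given with no test.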
